A study of Mus musculus with 6 samples.

Results

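The genes described here are the NF-κB subunits Rela, Relb, Rel, Nfkb1 and Nfkb2 and the inhibitors Nfkbia, Nfkbib, Nfkbie, Nfkbiz and Tnfaip3. They were found by gene symbol, and all 10 were among the 23207 rows of the table of estimated counts and among the 19745 genes tested. RNA had been sequenced from splenic cells labelled endothelial, in 1 library per mouse, from 3 mice given an antisense oligonucleotide against Mlkl (MLKL ASO; mice 1603, 1604 and 1607) and 3 given a control oligonucleotide (control ASO; mice 1601, 1602 and 1608). Such oligonucleotides bind a matching transcript and bring about its loss. The mice of both groups were Apoe knockouts, which lack apolipoprotein E and become hypercholesterolaemic on a rich diet, and both groups received the oligonucleotide and a high cholesterol diet for 8 weeks. The labels give the MLKL ASO mice as an Mlkl knockdown. The sources used here give neither age and sex nor the way the cells were isolated. Per its title, the study asked how Mlkl, a pseudokinase and the executioner of necroptotic cell death, bears on blood formation in the spleen during atherosclerosis.

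NF-κB is a family of transcription factors that work as paired subunits. In resting cells the IκB proteins hold the pairs in the cytoplasm. Signals from TNF, interleukin-1 or Toll-like receptors activate the IκB kinase complex, the IκB proteins are degraded, and the freed pairs, typically Rela with the processed product of Nfkb1, enter the nucleus. In a slower, alternative route the kinase encoded by Map3k14 triggers the processing of the Nfkb2 product, which then acts with Relb. Several of the inhibitors are themselves NF-κB targets, which closes a feedback loop. In endothelium the pathway is known for switching on leukocyte adhesion molecules and chemokines, and in B cells and dendritic cells Rel, Relb and Nfkb2 are known for their part in maturation and survival.

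The letters of the κB consensus, the site that NF-κB pairs bind, were looked for in RefSeq promoter windows of build GRCm38.p6, which run from 250 bases before to 50 bases after a start site. Windows were matched by symbol for 7 of the 10 genes. The consensus, read on both strands, stood in a window of 5 of these 7 genes (Nfkbia, Nfkbie, Tnfaip3, Nfkb2 and Rel), and in a window of 1388 (5.14%) of all 27025 genes with a window. The windows of Nfkbib and Rela did not hold it, and Nfkb1, Nfkbiz and Relb had no entry. The 150 bases before the start site are printed 5′ to 3′ on the strand of the gene for these 5 genes, with the bases that match in capitals, because they are the members with these letters near their start site.
Nfkbia, chr12:55492648-55492797, minus strand: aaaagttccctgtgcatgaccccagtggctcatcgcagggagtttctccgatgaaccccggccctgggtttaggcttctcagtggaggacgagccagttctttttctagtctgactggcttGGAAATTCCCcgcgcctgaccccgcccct
Nfkbie, chr17:45555550-45555699, plus strand: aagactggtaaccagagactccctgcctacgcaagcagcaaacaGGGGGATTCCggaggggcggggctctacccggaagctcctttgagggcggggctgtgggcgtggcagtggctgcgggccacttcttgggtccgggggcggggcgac
Tnfaip3, chr10:19015411-19015560, minus strand: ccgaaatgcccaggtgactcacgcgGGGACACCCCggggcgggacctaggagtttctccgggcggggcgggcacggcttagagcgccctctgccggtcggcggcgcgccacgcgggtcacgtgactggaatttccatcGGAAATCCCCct
Nfkb2, chr19:46304587-46304736, plus strand: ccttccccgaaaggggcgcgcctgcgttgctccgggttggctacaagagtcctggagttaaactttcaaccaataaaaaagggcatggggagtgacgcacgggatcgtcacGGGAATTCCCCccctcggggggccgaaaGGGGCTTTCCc
Rel, chr11:23770970-23771119, minus strand: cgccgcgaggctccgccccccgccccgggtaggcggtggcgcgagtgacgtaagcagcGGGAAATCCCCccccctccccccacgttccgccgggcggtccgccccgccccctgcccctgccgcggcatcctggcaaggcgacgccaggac

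The match in Nfkbia, GGAAATTCCC, began 29 bases before the start site. In Nfkb2 the matches began 39 and 11 bases before it, and its other start sites had further matches. Tnfaip3 had a match at 125 and a match at 12 bases, Rel at 92 bases and Nfkbie at 106 bases before the start site. In Nfkb2 and Rel the first run of capitals, GGGAATTCCCC and GGGAAATCCCC, holds overlapping matches on both strands and is therefore 11 letters long. A match describes letters only, and binding was not measured.

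Library totals ran from 59988846 to 85724084 estimated counts in MLKL ASO mice and from 67699450 to 87776706 in control mice, and each of the 10 genes had between 1661 and 81093 estimated counts per library. Mlkl measured 7.53, 5.81 and 3.74 CPM (counts relative to library size, with TMM factors) in MLKL ASO mice 1603, 1604 and 1607, against 30.7, 31.2 and 38.0 CPM in control mice 1601, 1602 and 1608, so the target gene followed the labels (log2 fold change -2.55, SE 0.27, edgeR adjusted p = 0.0655, DESeq2 adjusted p = 1.2e-15). Control mouse 1608 stood apart from the other 5 libraries on the first principal component. The defining markers of endothelium were present, and the summed level of 12 of them was 4328 to 5697 CPM in MLKL ASO mice and 5258 to 9075 CPM in control mice. The mean log2 CPM of these 12 markers was 7.91 to 8.06 in MLKL ASO mice, within the 7.67 to 8.51 of control mice. Their median log2 fold change was -0.16, with 9 of the 12 below 0 and 0 past the threshold in edgeR. The groups did not overlap in 1 marker that was lower (9.71% of all genes) and 1 that was higher (9.02% of all genes). Plvap, named outside the rule as the most abundant of them, averaged 1977 ± 717.5 CPM in MLKL ASO mice and 3551 ± 876 CPM in control mice (SD, n = 3 each), a log2 fold change of -0.84 without overlap (edgeR adjusted p = 0.380). Emcn, also named outside the rule, was the higher one. It averaged 46.2 ± 6.76 CPM in MLKL ASO mice and 33.9 ± 3.80 CPM in control mice (log2 fold change 0.45, edgeR adjusted p = 0.370). The part of this list in the differences of the NF-κB genes was not tested. Pecam1 measured 328 to 414 CPM in MLKL ASO mice and 279 to 383 CPM in control mice, and Cdh5 149 to 174 CPM in MLKL ASO mice and 107 to 236 CPM in control mice. Every library also held transcripts of blood cells, and all erythroid, neutrophil and megakaryocyte markers had log2 fold changes above 0, with overlapping sums. The medians of these 3 lists were 0.481, 0.445 and 1.04. The groups did not overlap in 2 of the 7 megakaryocyte markers, both higher (9.02% of all genes), and in 0 erythroid and 0 neutrophil markers. The lowest megakaryocyte sum, 83.2 CPM, was that of control mouse 1608. The summed levels of 10 erythroid markers were 42470 to 97800 CPM in MLKL ASO mice and 28140 to 81080 CPM in control mice, those of 10 neutrophil markers 744 to 2068 CPM in MLKL ASO mice and 246 to 1908 CPM in control mice, of 7 megakaryocyte markers 1300 to 2764 CPM in MLKL ASO mice and 83.2 to 1527 CPM in control mice, of 11 macrophage and monocyte markers 767 to 931 CPM in MLKL ASO mice and 635 to 1307 CPM in control mice, and of 10 fibroblast and mural markers 104 to 135 CPM in MLKL ASO mice and 45.0 to 170 CPM in control mice.

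Transcripts of the NF-κB subunits and inhibitors were lower on average in MLKL ASO mice than in control mice, but none of the 10 passed the test. With edgeR's quasi-likelihood test adjusted over all genes (threshold 0.05), 0 members were called lower or higher, where 0.00506% of all genes tested were called lower and 0.00506% higher (0.0101% in either direction). All 10 log2 fold changes lay below 0, as did 51.2% of those of all genes, and the median was -0.45 over the members (-0.20 with a lymphocyte covariate, described further on) and -0.0090 over all genes. In 7 of the 10 the 3 MLKL ASO values all lay below the 3 control values. That held for 9.71% of all genes tested, while 9.02% lay wholly above and 0 members did. Without mouse 1608 it held for 8 members and for 17.7% of all genes. At an unadjusted p under 0.05, 6 members were lower, as were 6.96% of all genes, and 0 were higher, as were 4.89% of all genes. With 3 mice against 3, a two-sided exact permutation test cannot give a p below 0.1. In bulk RNA, fewer cells of a type and less RNA per cell cannot be told apart.

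**Figure D1:**
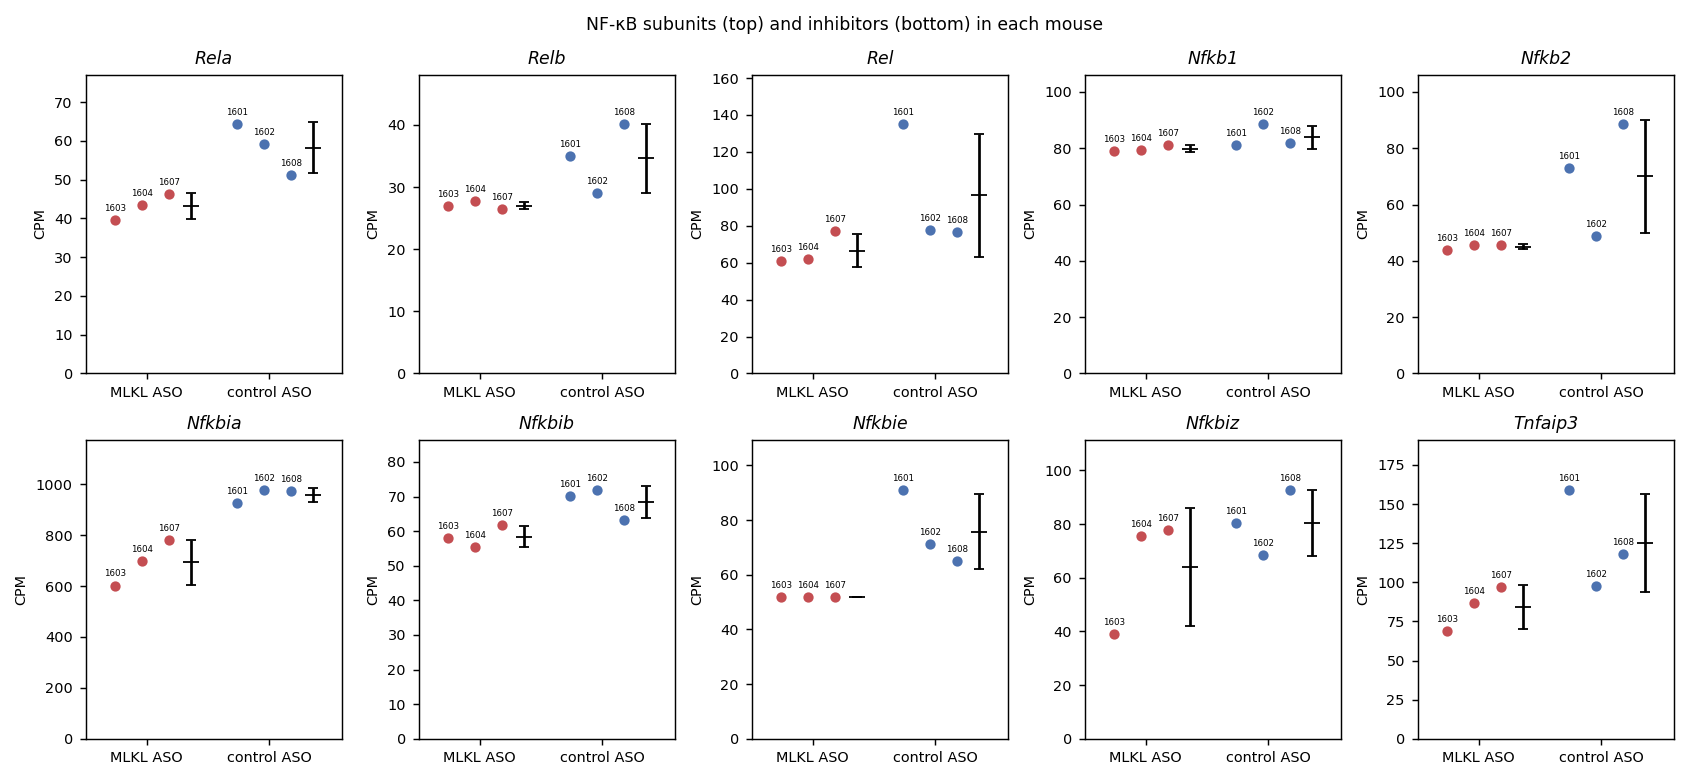
CPM of the 5 subunits (top) and 5 inhibitors (bottom) in each mouse, with MLKL ASO mice on the left and control mice on the right of each panel; points are mice labelled by number, and the bars give the group mean and SD (n = 3). In Rela, Relb, Nfkb2, Nfkbia, Nfkbib, Nfkbie and Tnfaip3 the points of the groups do not overlap, while in Rel, Nfkb1 and Nfkbiz they do.

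Among the subunits, Rela, which carries the main activation domain of the classical pair, measured 39.7, 43.4 and 46.4 CPM in MLKL ASO mice 1603, 1604 and 1607, against 64.3, 59.2 and 51.2 CPM in control mice 1601, 1602 and 1608. The groups did not overlap. Its log2 fold change was -0.43 (SE, its standard error, 0.13, edgeR adjusted p = 0.342). Nfkb1, which encodes the precursor of Rela's usual partner, differed least of the 10 genes. It measured 78.9, 79.4 and 81.3 CPM in MLKL ASO mice, against 81.2, 88.5 and 81.9 CPM in control mice, with a log2 fold change of -0.070 (SE 0.10, edgeR adjusted p = 0.822). Mouse 1607 lay just above control mouse 1601, so the groups overlapped by this pair alone.

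Nfkb2 and Relb form the pair of the alternative route, and both varied little among MLKL ASO mice. Nfkb2 measured 43.9, 45.7 and 45.6 CPM in MLKL ASO mice 1603, 1604 and 1607, against 73.1, 48.7 and 88.5 CPM in control mice 1601, 1602 and 1608. The lowest control mouse, 1602, lay only slightly above the MLKL ASO mice, and mouse 1608 was the highest. The log2 fold change of -0.64 (SE 0.21, edgeR adjusted p = 0.361) was the lowest of the 10 genes, and was -0.43 without mouse 1608 and -0.85 without mouse 1602. Relb measured 27.0, 27.7 and 26.4 CPM in MLKL ASO mice, against 34.9, 29.0 and 40.1 CPM in control mice. It showed the same order of control mice as Nfkb2, with a log2 fold change of -0.36 (SE 0.15, edgeR adjusted p = 0.407) that was -0.24 without mouse 1608.

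Rel, the subunit known from lymphocytes, measured 60.7, 62.1 and 76.9 CPM in MLKL ASO mice 1603, 1604 and 1607, against 135, 77.6 and 76.9 CPM in control mice 1601, 1602 and 1608. Control mouse 1601 was far above all others, and mouse 1607 reached the level of control mouse 1608. The log2 fold change was -0.53 (SE 0.24, edgeR adjusted p = 0.438), and -0.23 without mouse 1601.

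Nfkbia encodes IκBα, the inhibitor that is degraded and resynthesised fastest. It measured 602, 698 and 780 CPM in MLKL ASO mice 1603, 1604 and 1607, against 927, 979 and 972 CPM in control mice 1601, 1602 and 1608. Control mice lay close together and MLKL ASO mice were spread more widely, with mouse 1603 lowest. The log2 fold change was -0.47 (SE 0.12, edgeR adjusted p = 0.327). Nfkbib, which encodes the slower IκBβ, averaged 58.4 ± 3.09 CPM in MLKL ASO mice and 68.5 ± 4.69 CPM in control mice (SD, n = 3 each), a log2 fold change of -0.23 (SE 0.11, edgeR adjusted p = 0.462). Its groups were apart, though narrowly, at 61.7 CPM in mouse 1607 and 63.2 CPM in mouse 1608.

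Nfkbie, which encodes IκBε, measured 51.8, 51.8 and 52.0 CPM in MLKL ASO mice 1603, 1604 and 1607, against 91.1, 71.2 and 65.1 CPM in control mice 1601, 1602 and 1608. The MLKL ASO mice were almost equal, and all control mice were higher. The log2 fold change was -0.55 (SE 0.15, edgeR adjusted p = 0.327), and -0.41 without mouse 1601. Tnfaip3 encodes a ubiquitin-editing enzyme that shuts off signalling below the TNF and Toll-like receptors. It measured 69.2, 86.5 and 96.7 CPM in MLKL ASO mice, against 159, 97.8 and 118 CPM in control mice. Mice 1607 and 1602 lay close together at the border of the groups. The log2 fold change was -0.57 (SE 0.21, edgeR adjusted p = 0.380), and -0.38 without mouse 1601.

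Nfkbiz encodes an atypical, nuclear IκB that helps to switch on a subset of targets. It measured 38.9, 75.4 and 77.9 CPM in MLKL ASO mice 1603, 1604 and 1607, against 80.2, 68.4 and 92.8 CPM in control mice 1601, 1602 and 1608. Mouse 1603 alone was low, and the other MLKL ASO mice lay within the control range. The log2 fold change was -0.33 (SE 0.27, edgeR adjusted p = 0.664), and -0.082 without mouse 1603. Over all members, mouse 1603 held the lowest value of 8 of the 10 genes. The highest value was in a control mouse for every member, in mouse 1601 for 4 genes and in mice 1602 and 1608 for 3 genes each.

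Scaled per length, Nfkbia stood far above the rest of the family. With the union of exons of coding transcripts in GENCODE vM21 as length, it measured 439 ± 56.3 CPM per kb in MLKL ASO mice and 608 ± 17.6 CPM per kb in control mice (SD, n = 3 each). Nfkbib came next at 27.4 ± 1.45 CPM per kb in MLKL ASO mice and 32.2 ± 2.20 CPM per kb in control mice, then Nfkbie at 21.3 ± 0.0403 CPM per kb in MLKL ASO mice and 31.1 ± 5.59 CPM per kb in control mice. Rel was lowest, at 8.92 ± 1.21 CPM per kb in MLKL ASO mice and 12.9 ± 4.46 CPM per kb in control mice. In control mice the order ran on from Nfkbie through Tnfaip3, Rela, Nfkb1, Nfkbiz, Nfkb2 and Relb to Rel, and only Nfkbia was apart from its neighbour in every mouse, while all other neighbours overlapped. In MLKL ASO mice Nfkb1 followed Nfkbie, then Tnfaip3, Rela, Nfkbiz, Relb, Nfkb2 and Rel. There the neighbours from Nfkb1 to Relb overlapped, and the other neighbours were apart. The annotation the authors counted on is not given, so lengths, and any order, sum or share formed with them, are approximate.

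**Figure D2:**
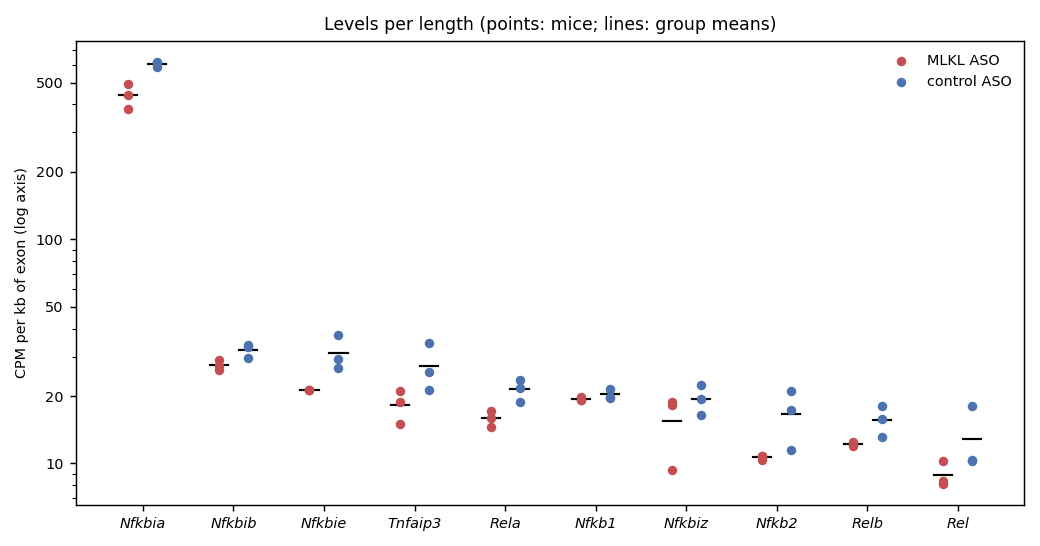
Level of each gene in CPM per kb of exon (log axis), ordered by the mean of control mice; points are mice, MLKL ASO on the left and control ASO on the right of each gene, and lines are group means. Nfkbia lies at 382 to 494 CPM per kb in MLKL ASO mice and 588 to 620 CPM per kb in control mice, and all other genes lie below 38 CPM per kb.

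The balance between inhibitors and subunits did not separate the groups. On the per-length scale, the summed level of Nfkbia, Nfkbib and Nfkbie was 6.67, 7.32 and 7.79 times that of the 5 subunits in MLKL ASO mice 1603, 1604 and 1607, against 6.96, 8.72 and 7.63 times in control mice 1601, 1602 and 1608. Both sums were lower in each MLKL ASO mouse: these inhibitors summed to 430, 490 and 544 CPM per kb in MLKL ASO mice, against 658, 683 and 672 CPM per kb in control mice, and the subunits to 64.5, 66.9 and 69.8 CPM per kb in MLKL ASO mice, against 94.6, 78.3 and 88.1 CPM per kb in control mice. Nfkbia alone made up 88.72% to 90.75% of the inhibitor sum in MLKL ASO mice and 89.29% to 91.61% in control mice. This balance is therefore mainly that of Nfkbia against the subunits. Within the subunits, Nfkb1 made up 28.2% to 29.7% of the sum in MLKL ASO mice, against 20.8% to 27.4% in control mice. The shares of the other 4 subunits overlapped, with Rela at 22.7% to 24.4% in MLKL ASO mice and 21.4% to 27.9% in control mice. These sums were formed after the values were known and are given without a test.

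Markers of lymphocytes, plasma cells and dendritic cells also had lower means in MLKL ASO mice, and 0 of them passed in edgeR. All 12 T and NK cell markers and all 10 B cell markers had log2 fold changes below 0, as had 8 of 9 dendritic cell markers and all 7 plasma cell markers, with medians of -1.19, -0.80, -0.53 and -0.66. The groups did not overlap in 10 T and NK cell, 4 B cell, 3 dendritic cell and 1 plasma cell markers, all lower (9.71% of all genes). Summed levels were 185 to 251 CPM in MLKL ASO mice and 262 to 674 CPM in control mice for T and NK cell markers, 762 to 1229 CPM in MLKL ASO mice and 1083 to 2446 CPM in control mice for B cell markers, 305 to 370 CPM in MLKL ASO mice and 420 to 666 CPM in control mice for dendritic cell markers, and 1280 to 1519 CPM in MLKL ASO mice and 1426 to 3167 CPM in control mice for plasma cell markers. The sums for B cell and plasma cell markers overlapped between the groups, and those for T and NK cell and for dendritic cell markers did not. DESeq2 called the T and NK cell markers Cd3d, Cd3e, Trbc2, Cd4, Thy1 and Ncr1 lower, where it called 1.48% of all genes lower. Their DESeq2 adjusted p values were 0.0317, 0.0387, 0.0241, 0.0213, 0.01035 and 0.0426. It called no marker of the B cell, plasma cell and dendritic cell lists. No marker of these lists was at 0, and the part of dendritic and plasma cells in the differences was not tested. Mouse 1601, which was highest in Rel, Nfkbie, Tnfaip3 and Rela, was also highest in all 4 sums. Among single markers, the B cell receptor chain Cd79a measured 271, 225 and 366 CPM in MLKL ASO mice 1603, 1604 and 1607, against 714, 395 and 321 CPM in control mice 1601, 1602 and 1608, and the T cell receptor subunit Cd3e 8.46 to 13.7 CPM in MLKL ASO mice, against 17.5 to 39.2 CPM in control mice. Ms4a1 (B cells) measured 125 to 207 CPM in MLKL ASO mice and 162 to 382 CPM in control mice, Trbc2 (T cells) 24.2 to 28.9 CPM in MLKL ASO mice and 34.9 to 118 CPM in control mice, Ccr7 142 to 210 CPM in MLKL ASO mice and 211 to 481 CPM in control mice and Flt3 (dendritic cells) 6.09 to 7.37 CPM in MLKL ASO mice and 7.76 to 15.7 CPM in control mice. The macrophage and monocyte list was mixed, with 8 of 11 markers below 0, a median of -0.10 and none whose groups did not overlap. Its Csf1r measured 53.7, 48.4 and 41.1 CPM in MLKL ASO mice, against 125, 46.9 and 47.1 CPM in control mice, so mouse 1601 alone was high.

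Adding the lymphocyte marker level to the fit left the differences of Nfkbia, Nfkb2 and Relb about as large, and made those of the other inhibitors but Nfkbiz, and of Rela and Rel, smaller or of the other sign. With the mean log2 CPM of the 22 B, T and NK cell markers as a covariate, which was 4.60, 4.67 and 4.83 in MLKL ASO mice and 6.29, 5.40 and 5.04 in control mice, Nfkbia had a log2 fold change of -0.48 (SE 0.18), Nfkb2 of -0.70 (SE 0.31) and Relb of -0.43 (SE 0.22). Under the same fit Nfkbie was at -0.20 (SE 0.14), Tnfaip3 at -0.15 (SE 0.24) and Rela at -0.20 (SE 0.16), and Rel at 0.14 (SE 0.18). Nfkbib was at -0.14 (SE 0.16), Nfkb1 at -0.095 (SE 0.15) and Nfkbiz at -0.32 (SE 0.41). The median over the 10 members was -0.20 in this fit, and 9 lay below 0. None passed (edgeR adjusted p between 0.289 and 0.824), and the test of a difference between members was not made. As the marker level did not overlap between the groups, the covariate and the group are partly confounded with 6 mice. The covariate also lowered the log2 fold changes of 2 endothelial markers. Cdh5 was at -0.68 (SE 0.21) with it and -0.041 without, and Pecam1 at -0.11 (SE 0.20) with it and 0.13 without. Whether the values of the members in this fit follow that shift was not tested.

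**Figure D3:**
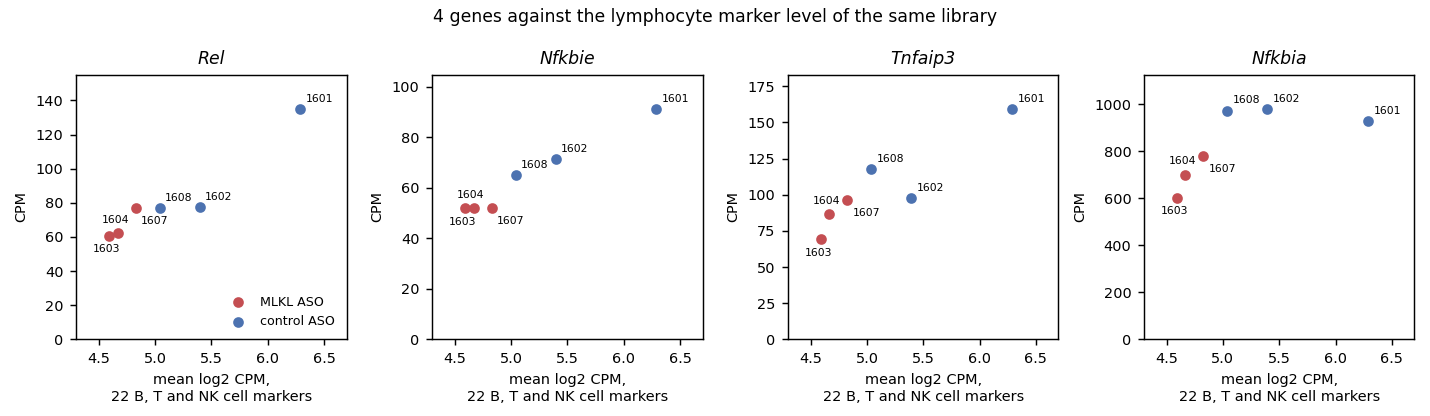
CPM of Rel, Nfkbie, Tnfaip3 and Nfkbia in each mouse against the mean log2 CPM of 22 B, T and NK cell markers in the same library, with MLKL ASO mice in red and control mice in blue. Rel, Nfkbie and Tnfaip3 are highest in mouse 1601, which has the highest marker level, while Nfkbia is nearly level over the 3 control mice at 927 to 979 CPM.

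Among the kinases that start the pathway, Map3k14 and Ikbkb were lower and Tab3 higher in all MLKL ASO mice, and none passed in edgeR. Of 12 genes of the IκB kinases and their activators, 0 passed in edgeR, 8 lay below and 4 above 0, the median log2 fold change was -0.23, and the groups did not overlap in 6, with 3 lower (9.71% of all genes) and 3 higher (9.02% of all genes). Map3k14, the kinase of the alternative route, measured 9.58, 10.03 and 9.24 CPM in MLKL ASO mice 1603, 1604 and 1607, against 20.7, 17.4 and 17.3 CPM in control mice 1601, 1602 and 1608. Every MLKL ASO mouse was thus well below every control mouse, with a log2 fold change of -0.94 (SE 0.15, edgeR adjusted p = 0.161). DESeq2, which called 1.48% of genes lower and 1.14% higher, called Map3k14 lower (DESeq2 adjusted p = 5.19e-07). With the lymphocyte covariate its log2 fold change was -0.76 (SE 0.21). Ikbkb, the catalytic subunit of the classical IκB kinase, measured 92.9 ± 4.04 CPM in MLKL ASO mice and 118 ± 6.73 CPM in control mice (SD, n = 3 each), again without overlap, with a log2 fold change of -0.35 (edgeR adjusted p = 0.342). Tab3, an adaptor of the upstream kinase encoded by Map3k7, was of the opposite sign, at 8.67 ± 1.05 CPM in MLKL ASO mice and 5.25 ± 0.317 CPM in control mice and a log2 fold change of 0.72 (edgeR adjusted p = 0.323, DESeq2 adjusted p = 0.00577).

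Among the other IκB family genes, brakes and ligase genes, Nfkbid had the lowest log2 fold change. Of 17 genes of the remaining IκB family, ubiquitin-editing partners and the ligase that marks IκB, 0 passed in edgeR, 13 lay below 0 and the median was -0.20, and the groups did not overlap in 5, all lower (9.71% of all genes). Fbxw11 and Cul1, both among these 5, belong to that ligase, which marks IκB for loss and is not a brake. The count and median are therefore not those of brakes alone. Nfkbid, an atypical nuclear IκB, measured 19.5, 18.2 and 20.5 CPM in MLKL ASO mice 1603, 1604 and 1607, against 46.8, 33.6 and 33.0 CPM in control mice 1601, 1602 and 1608. The groups were far apart, with a log2 fold change of -0.96 (SE 0.17, edgeR adjusted p = 0.187, DESeq2 adjusted p = 0.000223), and of -0.57 (SE 0.17) with the lymphocyte covariate. The deubiquitinase Cyld measured 55.6 ± 1.40 CPM in MLKL ASO mice and 65.8 ± 5.93 CPM in control mice, and Fbxw11, a substrate receptor of the IκB ligase, 41.8 ± 6.82 CPM in MLKL ASO mice and 52.1 ± 3.25 CPM in control mice (SD, n = 3 each). Neither passed (edgeR adjusted p = 0.446 each), although the groups did not overlap in either.

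Among 20 adaptors and ubiquitin ligases between receptors and kinases, 0 passed in edgeR, 16 lay below 0 with a median of -0.17, and the groups did not overlap in 8, all lower (9.71% of all genes). Malt1, the paracaspase that relays antigen receptor signals, measured 30.6, 34.4 and 30.5 CPM in MLKL ASO mice, against 61.8, 43.7 and 46.0 CPM in control mice, and mouse 1601 was again highest. Its log2 fold change was -0.67 (edgeR adjusted p = 0.301, DESeq2 adjusted p = 0.0261), and -0.33 with the lymphocyte covariate. Traf2, an adaptor of TNF receptors, measured 69.1 ± 1.06 CPM in MLKL ASO mice and 89.1 ± 5.63 CPM in control mice, and Traf1, an adaptor that is also a target, 47.5 ± 3.18 CPM in MLKL ASO mice and 64.7 ± 11.7 CPM in control mice (SD, n = 3 each; edgeR adjusted p = 0.331 and 0.372). With the covariate Traf2 was at -0.44 and Traf1 at -0.084 on the log2 scale.

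Receptors had a median near that of all genes, with 7 of 12 below 0, a median of -0.0020 and 0 past the threshold in edgeR. The TNF receptor gene Tnfrsf1b measured 16.5 ± 1.99 CPM in MLKL ASO mice and 26.9 ± 9.79 CPM in control mice, the B cell survival receptor Tnfrsf13c 40.3 ± 14.8 CPM in MLKL ASO mice and 58.5 ± 26.6 CPM in control mice, and the interleukin-1 receptor Il1r1 15.9 ± 2.26 CPM in MLKL ASO mice and 13.8 ± 0.561 CPM in control mice (SD, n = 3 each; edgeR adjusted p = 0.386, 0.615 and 0.646). Of 9 ligands, 5 lay below 0, with a median of -0.036, and 0 passed. Lymphotoxin β (Ltb), which lymphocytes make, measured 216, 167 and 218 CPM in MLKL ASO mice, against 473, 365 and 232 CPM in control mice, and its log2 fold change of -0.83 (edgeR adjusted p = 0.349) was -0.15 with the lymphocyte covariate. Lta, the partner of Ltb, measured 1.94 ± 0.362 CPM in MLKL ASO mice and 4.34 ± 2.44 CPM in control mice, and Cd40lg, the T cell ligand of CD40, 0.973 ± 0.114 CPM in MLKL ASO mice and 1.94 ± 0.858 CPM in control mice. Tnf itself measured 4.26 ± 0.956 CPM in MLKL ASO mice and 4.37 ± 2.04 CPM in control mice (SD, n = 3 each; edgeR adjusted p = 0.985); it is named outside the rule for named genes, as the ligand that gives the pathway its best known input.

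Of 25 classical target genes 23 were tested, 18 of them lay below 0, the median was -0.41 and 0 passed in edgeR. The groups did not overlap in 3 of the 23, all lower (9.71% of all genes). Irf1, an interferon regulatory factor, measured 66.1, 73.4 and 74.7 CPM in MLKL ASO mice 1603, 1604 and 1607, against 101.6, 100.6 and 139.5 CPM in control mice 1601, 1602 and 1608. There was no overlap, and the log2 fold change was -0.67 (edgeR adjusted p = 0.289, DESeq2 adjusted p = 0.0296), and -0.90 with the lymphocyte covariate. Gadd45b, a stress-induced inhibitor of cell death, measured 29.7, 35.9 and 45.1 CPM in MLKL ASO mice, against 58.0, 60.3 and 60.3 CPM in control mice (log2 fold change -0.69, edgeR adjusted p = 0.294, DESeq2 adjusted p = 0.0274). Zc3h12a, an RNase that degrades cytokine mRNA, measured 9.46 ± 2.35 CPM in MLKL ASO mice and 16.2 ± 2.21 CPM in control mice (SD, n = 3 each; edgeR adjusted p = 0.342). The adhesion molecules of this list, all named outside the rule, overlapped between the groups. Icam1 measured 172 to 186 CPM in MLKL ASO mice and 178 to 333 CPM in control mice, and Vcam1 216 to 332 CPM in MLKL ASO mice and 261 to 425 CPM in control mice. Sele averaged 9.41 CPM in MLKL ASO mice and 16.6 CPM in control mice. Selp went the other way, at 47.0 CPM in MLKL ASO mice and 18.3 CPM in control mice. It ranged from 27.3 to 68.4 CPM in MLKL ASO mice, against 19.95, 32.8 and 2.28 CPM in control mice 1601, 1602 and 1608. Targets of the alternative route were mixed, with 3 of 6 below 0, a median of 0.18 and 0 past the threshold. Ccl19, a chemokine of T cell zones, measured 62.5 ± 7.39 CPM in MLKL ASO mice and 113 ± 48.2 CPM in control mice, Madcam1, an addressin of marginal sinus endothelium, 247 ± 128 CPM in MLKL ASO mice and 83.4 ± 70.3 CPM in control mice, and Glycam1, a mucin-like ligand of L-selectin, 7.04 ± 6.10 CPM in MLKL ASO mice and 2.15 ± 2.22 CPM in control mice (SD, n = 3 each). With edgeR the adjusted p values of these 3 genes were 0.386, 0.423 and 0.666.

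**Figure D4:**
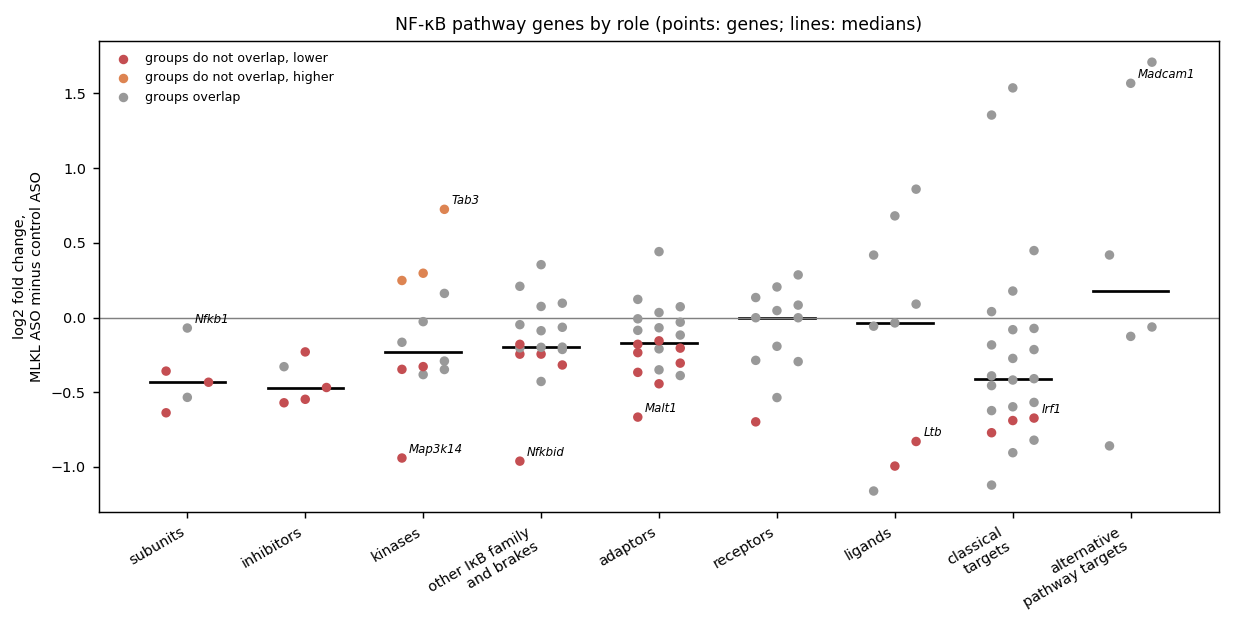
Log2 fold change, MLKL ASO minus control ASO, of each tested gene of the pathway by role; points are genes, coloured by whether the 3 MLKL ASO values lie wholly below or above the 3 control values, and lines are medians. The subunits and inhibitors have medians of -0.43 and -0.47, and the medians of receptors and ligands lie near 0 although single ligands run from -1.16 to 0.86. Map3k14 stands lowest among the kinases, and Nfkbid among the other IκB family genes and brakes, a column that also holds the ligase that marks IκB.

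Immediate early genes, the first to respond to a stimulus or to tissue dissociation, also had low values in MLKL ASO mice, and 0 of them passed in edgeR. DESeq2, which called 1.48% of all genes lower, called 5 of them lower, namely Junb (DESeq2 adjusted p = 2.1e-08), Ier2 (4.3e-05), Socs3 (0.00388), Nr4a1 (0.0145) and Dusp1 (0.0402). Of 23 such genes 22 lay below 0, the median was -0.63, and the summed level was 7005 to 9548 CPM in MLKL ASO mice and 12610 to 15360 CPM in control mice, without overlap. In 13 of the 23 the groups did not overlap, all lower (9.71% of all genes). The list also holds the heat shock chaperone genes Hspa1a and Hspa1b, so its counts, median and sum are not those of immediate early genes alone. Hspa1a, the most abundant gene of the list, measured 1736 to 2457 CPM in MLKL ASO mice and 2878 to 4120 CPM in control mice. Fos measured 479, 698 and 834 CPM in MLKL ASO mice 1603, 1604 and 1607, against 844, 1136 and 1521 CPM in control mice 1601, 1602 and 1608, and Junb 609, 723 and 742 CPM in MLKL ASO mice, against 2010, 1378 and 1935 CPM in control mice. Their part in the differences of the NF-κB genes was not tested. The genes whose log2 CPM over the 6 libraries was most like that of Nfkbia, among 9493 genes with a mean of at least 10 CPM, were Gadd45b, Zfp707, Trpc4ap, Dusp1 and Taf1a, with Pearson r from 0.979 to 0.997. With only 6 libraries, 24 genes had an r above 0.95. The genes named were, like Nfkbia, lower in every MLKL ASO mouse than in every control mouse. Their likeness and the group difference cannot be told apart, and the likeness is a description only. Dusp1, a phosphatase of MAP kinases and itself an immediate early gene, measured 936, 1068 and 1303 CPM in MLKL ASO mice, against 1520, 1872 and 1712 CPM in control mice.

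Genes with the κB consensus in a promoter window were described beside those without it, and no test of the difference was made. Of 818 such genes tested, 56.0% had a log2 fold change below 0 with a median of -0.050, the MLKL ASO values all lay below the control values in 12.7%, and all above in 7.33%. Among 12051 tested genes with a window but no match, 51.3% had a log2 fold change below 0 with a median of -0.0090, the values lay wholly below in 9.85% and wholly above in 9.20%. Of the 5 members with the consensus, Nfkbia, Nfkbie, Tnfaip3 and Nfkb2 had groups that did not overlap, whereas those of Rel overlapped. In Rela and Nfkbib, whose windows lacked it, the groups did not overlap as well. Among the classical targets 10 of 20 with a window held the consensus, Irf1 among them. So did 6 of 12 genes in the list of other IκB family genes, brakes and ligase genes, Nfkbid among them, but 1 of 9 kinases.

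In the DESeq2 fit of the authors' deposited table, 0.934% of rows were lower and 0.872% higher past an adjusted p of 0.05. None of the 10 members passed in the authors' deposited table. Among the members, the lowest adjusted p in the authors' deposited table was 0.130 for Nfkbie, with a log2 fold change of -0.51, followed by 0.141 for Nfkbia at -0.45. The DESeq2 fit made here on the genes that passed the count filter gave adjusted p values of 0.0596 for Nfkbie and 0.0695 for Nfkbia, which also missed the threshold.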

How the data were processed

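Per the submitters' processing notes, the authors used fastp 0.20.1, Salmon 1.3.0 and DESeq2. The authors deposited estimated counts per gene symbol (69.3% of values are not whole) and a DESeq2 table with, per the file headers, a mean signal after size factors, a log2 fold change with its standard error, a Wald score and p-values. The sources used here name no genome build or annotation. Positive values of the authors' log2 fold changes were taken as higher in MLKL ASO mice, because they correlated at 0.977 across 19728 genes with those computed here.

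Estimated counts were rounded. Fits were made in R 4.3.3, mainly by edgeR 4.0.16 (default expression filter, TMM, quasi-likelihood test, two-sided, Benjamini-Hochberg over all genes, threshold 0.05), with DESeq2 1.42.0 and limma 3.58.1 as alternatives. Standard errors (SE) of log2 fold changes were taken from the edgeR F statistics. The script was tested on simulated data. Values are mean ± SD over 3 mice. Each mouse gave 1 library, and mouse numbers do not recur between groups, so no block was fitted. The members and gene lists were chosen with earlier results of these data known. Named genes were Mlkl, the 10 members, up to 3 genes with the smallest p in each pathway list (mean of at least 1 CPM), 11 markers and the 5 genes most like Nfkbia. A planned search for a protein motif was not run, as no protein table was used here.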

Additional observations from a re-analysis of the deposited data

How the results depend on the processing

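No member passed in any of the 16 alternatives. The number of members whose groups do not overlap was 7 to 9 under other scalings, where 8.09% to 9.74% of all genes lay lower. It was 8 or 9 without any single mouse, where 13.4% to 17.7% of all genes lay lower, against 9.71% with all mice. It was 8 without mouse 1608 (17.7% of all genes) and 9 without mouse 1601 (16.4%). All 10 lay below 0 in each alternative but the lymphocyte covariate. At an unadjusted p under 0.05, 6 members were lower with all mice, as were 6.96% of all genes. The number was 3 without mouse 1603 (4.47% of all genes) and 4 without mouse 1601 (6.95%) or 1604 (4.45%). It was 5 without mouse 1607 (4.24%) and 7 without mouse 1602 (6.38%) or 1608 (8.66%). DESeq2 gave 7 (8.22% of all genes), and the covariate fit gave 1 (7.07%). Over all genes, 1 lower and 1 higher were called, with 2 and 2 under upper quartile factors, 4 and 5 under library totals alone, 291 and 224 in DESeq2, 13 and 9 in limma-voom, 3 and 4 after removal of blood transcripts (globin genes and the antigen receptor genes of B and T cells), 0 and 0 with the covariate, and 0 to 9 lower and 0 to 10 higher without single mice. Of the pathway genes, DESeq2 called 5 lower (Map3k14, Nfkbid, Malt1, Irf1 and Gadd45b) and 1 higher (Tab3), where edgeR called 0. Of all genes, DESeq2 called 1.48% lower and 1.14% higher. Mlkl, at -2.55 with edgeR adjusted p = 0.0655, passed under library totals alone (-2.54), DESeq2 (-2.54), limma-voom (-2.47) and the removal of blood transcripts (-2.55). The covariate turned the sign of Rel (0.14), Lta (0.031), Tnfrsf13c (0.48), Pecam1 (-0.11), Ccr7 (0.027), Flt3 (0.014) and Csf1r (0.54), and of Cd79a (0.20) and Ms4a1 (0.35), which are part of it. Limma-voom turned Glycam1 (-0.25) and Cdh5 (0.056). Without single mice Cdh5 ranged from -0.30 to 0.30 and Csf1r from -0.86 to 0.0056. Apart from the covariate and the removal of mice, whose own construction changes the samples or terms fitted, the cause was not tested. No paired analysis was possible because the groups share no mouse number. Whether more reads or more mice would change a call was not tested.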
